A study of Mus musculus with 10 samples.

Results

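The genes described here encode the outside of the Wnt pathway: the secreted Wnt ligands, the R-spondins that enhance them, the frizzled, LRP and LGR receptors, and the secreted antagonists, together with Axin2. They were taken by symbol from the table of counts. A row was a member if its symbol was Wnt, Fzd, Sfrp, Dkk or Rspo with a number, Lgr4, Lgr5, Lgr6, Lrp5 or Lrp6, or one of Frzb, Wif1, Axin2 and Sost. This gave 50 members of 55453 symbols, and the rule used no measured value. RNA-seq was performed on whole aortae of male C57BL/6 mice, with 5 young mice aged 14.5 weeks and 5 old mice whose age the labels give as 92.5 weeks. No allele, transgene or treatment was given for either group, periadventitial fat had been removed from every aorta, and all animals were sacrificed on the same occasion. The question was which genes differ in expression between young and old aortae.

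Wnt proteins are lipid-modified glycoproteins that bind a frizzled receptor on a nearby cell. When a frizzled pairs with the co-receptor Lrp5 or Lrp6, the complex that destroys beta-catenin is held back, and beta-catenin enters the nucleus and activates transcription with TCF/LEF factors. R-spondins bind LGR receptors and keep frizzleds on the cell surface, Sfrp proteins, Frzb and Wif1 bind the ligands, and sclerostin (Sost) and the Dickkopf proteins Dkk1, Dkk2 and Dkk4 bind the LRP co-receptors. Other ligands, such as Wnt5a, Wnt5b and Wnt11, are best known for routes that do not need beta-catenin. In arteries the pathway is known for roles in smooth muscle growth, endothelial stability and calcification of the wall.

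Totals on genes ranged from 19640401 to 22886153 counts per library, so the libraries were close in depth. Mitochondrial transcripts made up 4.50 to 6.22% of counts in young aortae and 5.19 to 6.51% in 4 old aortae, but 11.0% in old replicate 2. Smooth muscle markers were abundant in each library, with summed levels of 740828 to 953124 normalized counts. Adipocyte markers stood highest in young replicate 1, whose summed level was 9378 against 2461 to 4734 in the other young aortae. Young replicate 1 was also the highest of its group in 13 of 36 tested members and the lowest in 10. Old replicate 2 was the lowest of its group in 16 and old replicate 3 the highest in 15. A normalized count is a count divided by the size factor of its library. Groups are given as mean ± SD (n = 5), and levels of different genes are compared only per kilobase of exon.

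Of the 50 members, 36 passed the filter on low counts and 14 did not. EdgeR's quasi-likelihood test was run over 14614 genes, and a gene counted as called if its p, adjusted by the method of Benjamini and Hochberg, was below 0.05. Of the 36 tested members, 11 (30.6%) were called, against 11.5% of all tested genes. The called members comprised 4 that were higher in old aortae (11.1%, against 6.48% of all genes) and 7 that were lower (19.4%, against 4.99%). The higher ones were Rspo1, Rspo3, Wnt6 and Dkk3, and the lower ones Sfrp1, Fzd3, Wnt5b, Sost, Fzd6, Lrp5 and Lgr4. The young and old values did not overlap in 11 members (30.6%, against 9.92% of all genes), namely each called member other than Dkk3, and Fzd9. As whole aortae were sequenced, fewer cells of a type and less RNA per cell cannot be told apart in any of these values. The median log2 fold change of the 36 members was -0.10, beside 0.0034 for all genes, and 23 of them had negative and 13 positive values. Of the members not called, 20 of 25 had a log2 fold change of less than 0.4 in size. Without old replicate 2, 4 members were higher and 7 lower, and without young replicate 1 they were 3 and 8, as Dkk3 was lost and Lrp6 gained. Leaving out young replicate 1 also raised the number of all genes lower in old aortae from 729 to 1139, and leaving out young replicate 4 reduced it to 474.

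**Figure D1:**
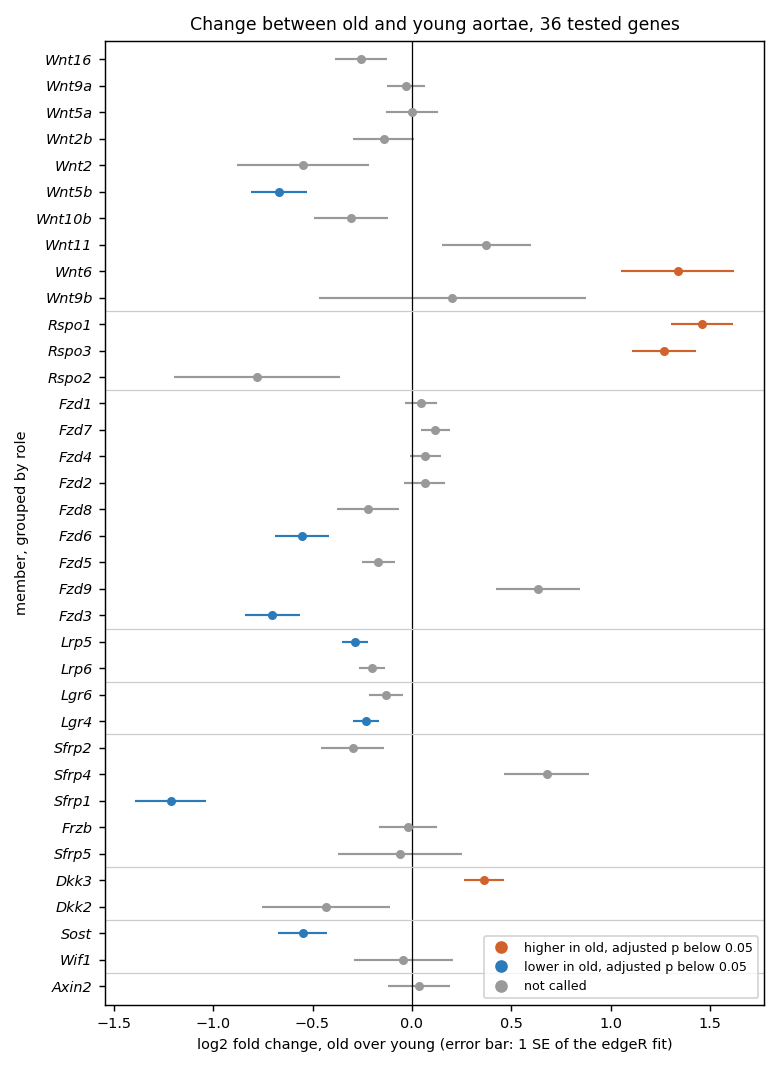
Log2 fold change of old over young aortae on the x axis for each of the 36 tested members, grouped by role on the y axis. Points are edgeR estimates, bars 1 SE, and colours mark the direction of the 11 called members. Rspo1, Rspo3 and Wnt6 lie farthest to the right and Sfrp1 farthest to the left.

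The members spanned a wide range of levels. Sost, Dkk3 and Sfrp2 were the most abundant per kilobase. Sfrp proteins, Frzb, Dickkopf proteins, Wif1 and Sost summed to 20362 normalized counts per kilobase in young and 17057 in old aortae, whereas all Wnt ligands summed to 735 ± 56.3 and 657 ± 87.0. Over the 10 aortae Wif1, Frzb, Sfrp5, Dkk1, Dkk2 and Dkk4 lay under the most abundant ligand, Wnt16. In all, 20 members had a mean level of at least 100 normalized counts per kilobase over the 10 aortae. Sost ranked 56 of 14516 tested genes with a known exonic length, Dkk3 169 and Sfrp2 187. The least abundant tested members per kilobase were Wnt9b, Rspo2, Fzd3 and Wnt6.

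**Figure D2:**
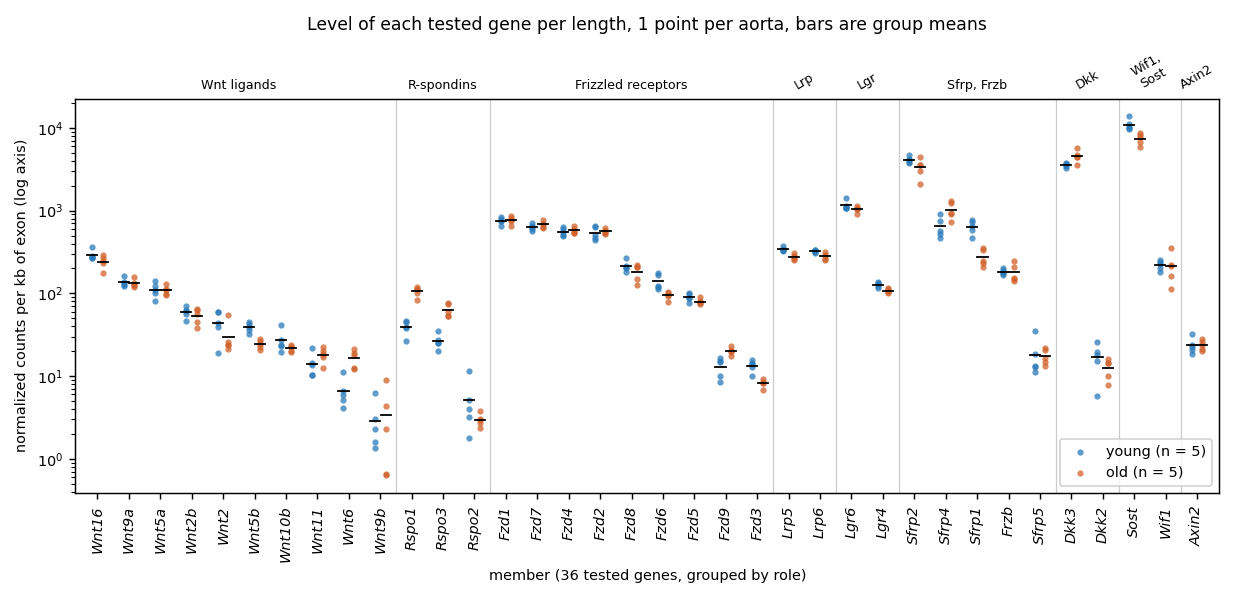
Normalized counts per kilobase of exon (log axis) of the 36 tested members on the x axis, grouped by role, with 1 point per aorta and a bar at each group mean. Sost, Dkk3 and Sfrp2 sit above all Wnt ligands, and the 2 groups separate for 11 members, among them Rspo1, Rspo3, Wnt6 and Sfrp1.

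Among the 19 Wnt ligands, 10 were tested, of which 1 was higher in old aortae (Wnt6), 1 lower (Wnt5b) and 8 were not called. Wnt16 was the most abundant ligand per kilobase and made up 39.7 ± 5.17% of the summed ligand level in young and 36.8 ± 3.58% in old aortae. Wnt16, Wnt9a and Wnt5a together held 73.2% and 73.8%, so that the main ligands of the aorta were the same at both ages.

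Wnt6 (chr1:74771892-74785322, plus strand, GRCm38) is a ligand best known from epithelia and kidney development. It measured 24.5, 13.1, 8.97, 14.5 and 11.3 normalized counts in young replicates 1 to 5 and 40.0, 27.2, 27.0, 41.5 and 46.7 in old replicates 1 to 5. The lowest old aorta lay above the highest young one, young replicate 1, by a small margin. Young mice averaged 14.5 ± 5.99 and old mice 36.5 ± 8.88, which edgeR estimated as a log2 fold change of 1.34 (SE 0.28, adjusted p = 0.00916). Its share of the summed ligand level per kilobase was 0.889 ± 0.307% in young and 2.57 ± 0.678% in old aortae, so that it remained a minor ligand.

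Wnt5b (chr6:119432531-119544347, minus strand, GRCm38), a close relative of Wnt5a that acts mainly without beta-catenin, went the other way. Normalized counts were 103, 96.6, 115, 86.9 and 119 in the young aortae and 65.0, 54.5, 75.5, 70.4 and 59.3 in the old ones. Every old value lay under every young value. The mean of 104 ± 13.1 fell to 64.9 ± 8.40 (edgeR log2 fold change -0.67, SE 0.14, adjusted p = 0.00914). Wnt5a itself was at 863 ± 172 and 856 ± 109.6 normalized counts (log2 fold change -0.00086, SE 0.13, edgeR adjusted p = 0.998), and its groups overlapped throughout.

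The level of Wnt16, a ligand expressed in bone and connective tissue, was 1221, 1193, 1597, 1163 and 1177 normalized counts in the young aortae and 1154, 763, 1282, 1087 and 1002 in the old ones. Young replicate 3 was the highest and old replicate 2 the lowest, and the other values overlapped. The log2 fold change was -0.26 (SE 0.13, edgeR adjusted p = 0.239), and -0.16 without young replicate 3. Wnt9a, at 454 ± 51.4 and 442 ± 52.5, and Wnt2b, at 250 ± 38.2 and 224 ± 49.3, both activators of beta-catenin signalling, were not called either. Wnt2 ranged from 43.0 to 136 in young and from 48.6 to 124 in old aortae. Its old value of 124 came from replicate 3, and the other old aortae lay between 48.6 and 57.8.

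Wnt10b, a ligand known for restraining fat cell formation, was at 92.1 ± 28.4 and 74.0 ± 5.82 normalized counts, with 140.1 in young replicate 1. That aorta had the highest adipocyte markers, and it was the highest of its group in 13 of 36 tested members. A relation of Wnt10b to fat was not tested. The log2 fold change of Wnt10b was -0.31, and -0.11 without that aorta. Wnt11 was at 58.4 ± 19.2 and 75.3 ± 15.5, with 90.0 in young replicate 1, and its log2 fold change of 0.37 became 0.58 without it (edgeR adjusted p = 0.0667, over a range of 0.0667 to 0.529 in the alternatives). Neither ligand was called in any alternative. Among the tested ligands Wnt9b was the most variable, from 2.89 to 40.3 in the old aortae.

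R-spondins are secreted proteins that amplify Wnt signals through LGR receptors. Rspo1 and Rspo3 were higher in old aortae and Rspo2 was not called, while Rspo4 had 1 count in all. The summed level of the family per kilobase was 70.6 ± 11.2 in young aortae, with values from 53.7 to 83.4, and 173 ± 23.6 in old ones, with values from 139 to 192.

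Rspo1 (chr4:124986430-125009099, plus strand, GRCm38), known for its part in ovary development, showed the largest positive fold change of the 36 members. Its normalized counts were 88.9, 51.3, 86.7, 76.3 and 73.8 in the young and 197, 160.2, 220.0, 232 and 221 in the old aortae. Even the lowest old aorta, replicate 2, was well above the highest young one. The young mean of 75.4 ± 15.0 compared with an old mean of 206 ± 28.7 (edgeR log2 fold change 1.46, SE 0.15, adjusted p = 9.75e-05). The lowest log2 fold change in any of 17 alternatives was 1.34.

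Rspo3 (chr10:29452416-29535867, minus strand, GRCm38) is required for blood vessel formation in the placenta. It measured 61.3, 78.5, 83.8, 78.2 and 109 normalized counts in the young and 166, 165, 232, 185 and 233 in the old aortae, again without overlap. Rspo3 rose from a mean of 82.1 ± 17.1 in young mice to 196 ± 34.3 (edgeR log2 fold change 1.27, SE 0.16, adjusted p = 0.000327). Of its exonic sequence, 13.1% is overlapped by Gm48159 on the opposite strand, whose reads cannot be told apart from its own here if strand was not used in counting. Rspo2 was at 26.3 ± 19.3 in young and 15.1 ± 2.68 in old aortae, with 58.8 in young replicate 3, and its log2 fold change of -0.78 (SE 0.42, edgeR adjusted p = 0.255) became -0.24 without that aorta. Rspo1 held 55.0 ± 6.50% of the summed R-spondin level per kilobase in young and 61.5 ± 3.02% in old aortae.

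**Figure D3:**
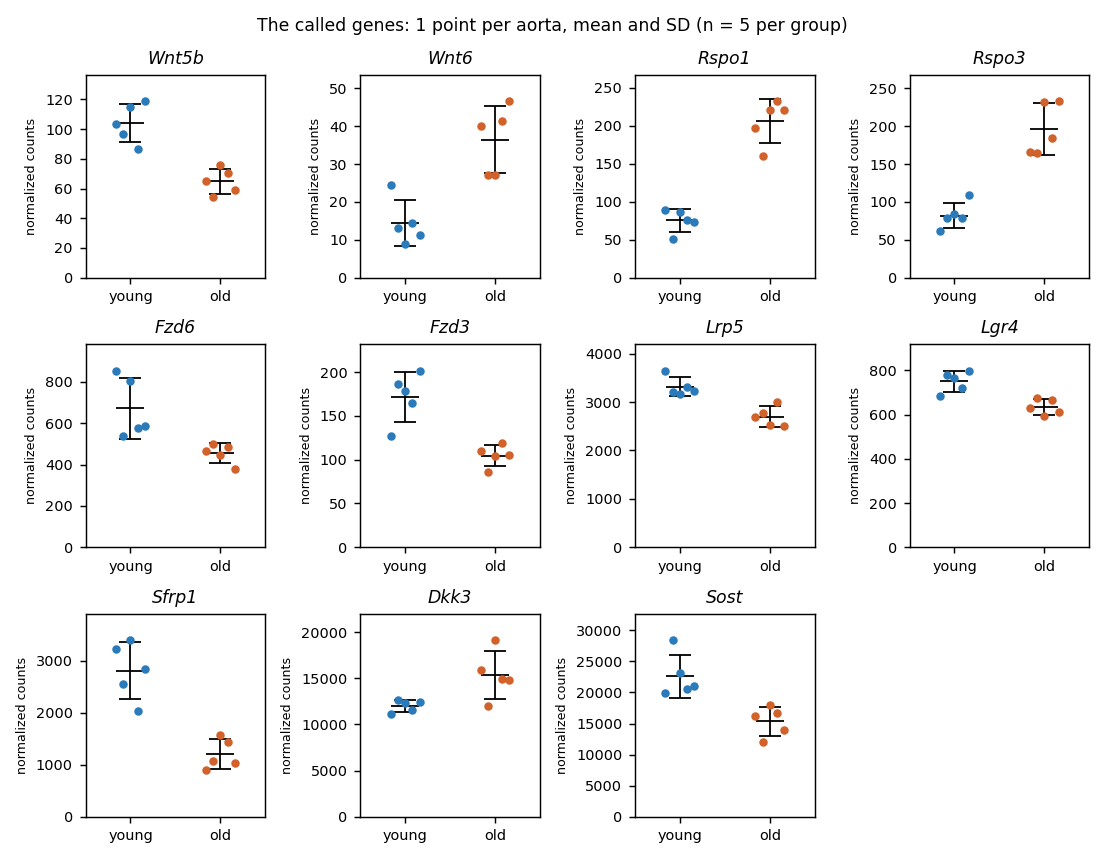
Normalized counts (y axis, from 0) of the 11 called members in young and old aortae (x axis), with 1 point per aorta and the mean and SD of each group (n = 5). Old values lie apart from young values in each panel other than Dkk3, where old replicate 2 falls within the young range.

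Promoter sequences are shown for the ligand that rose (Wnt6), the R-spondin with the largest rise (Rspo1), the ligand that fell (Wnt5b, at the one of its 3 start sites whose window holds a TCF/LEF core) and the most abundant member (Sost). They were read from RefSeq's table for GRCm38.p6, in which 33 of the 50 members had an entry. Each line gives the 250 bases before the start site, 5′ to 3′ on the strand of the gene, at chr4:124986180-124986429 (plus) for Rspo1, chr1:74771642-74771891 (plus) for Wnt6, chr6:119449387-119449636 (minus) for Wnt5b and chr11:101967016-101967265 (minus) for Sost. Capitals mark matches on either strand to the core CTTTGA of TCF/LEF factors or its other common form CTTTGT. They also mark any GC box, with the letters GGGCGG. Searches for the letters TATAAA of a TATA box used both strands. E-boxes were searched as CACGTG, which reads the same on both.
Rspo1: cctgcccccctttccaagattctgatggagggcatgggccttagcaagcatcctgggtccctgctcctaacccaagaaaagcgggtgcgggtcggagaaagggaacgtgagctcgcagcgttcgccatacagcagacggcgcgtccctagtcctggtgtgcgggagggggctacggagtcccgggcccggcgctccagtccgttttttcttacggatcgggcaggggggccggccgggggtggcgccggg
Wnt6: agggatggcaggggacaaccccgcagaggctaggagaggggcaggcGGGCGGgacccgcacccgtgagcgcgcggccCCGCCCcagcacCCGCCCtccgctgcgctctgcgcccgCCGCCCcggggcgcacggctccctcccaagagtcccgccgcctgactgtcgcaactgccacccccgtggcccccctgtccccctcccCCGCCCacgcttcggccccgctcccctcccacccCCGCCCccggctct
Wnt5b: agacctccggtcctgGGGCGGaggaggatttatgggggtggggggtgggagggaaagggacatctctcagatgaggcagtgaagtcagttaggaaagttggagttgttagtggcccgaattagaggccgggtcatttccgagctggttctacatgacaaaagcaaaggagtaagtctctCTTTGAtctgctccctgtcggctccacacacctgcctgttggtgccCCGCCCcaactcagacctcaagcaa
Sost: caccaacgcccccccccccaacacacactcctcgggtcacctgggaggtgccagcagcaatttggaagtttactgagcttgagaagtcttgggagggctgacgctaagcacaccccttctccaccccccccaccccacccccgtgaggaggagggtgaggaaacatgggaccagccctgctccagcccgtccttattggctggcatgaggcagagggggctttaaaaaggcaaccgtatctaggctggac
The Rspo1 and Sost windows held no match to these letters. The Wnt6 window held only GC boxes, and 79.6% of its bases were G or C. This compared with 66.8% for Rspo1, 55.6% for the printed Wnt5b window and 61.2% for Sost. Windows at the other Wnt5b start sites, which are not printed, were at 53.2% and 75.2%. The printed Wnt5b window was chosen for its 1 CTTTGA, whose first base lies at -71 from the start site, and also held 2 GC boxes. It lies inside the gene. The window at the upstream end of the gene, chr6:119544348-119544597, held no TCF/LEF core. Over windows that run on to 50 bases after the start, 9 of 36 member promoters (25%) held a TCF/LEF core, against 31.2% of 32851 promoters in the table. GC boxes were in 26 of the 36 (72.2%), against 35.7%, TATA boxes in 5 (13.9%, against 13.6%) and E-boxes in 4 (11.1%, against 7.15%). A match is a description of the letters only.

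Of the 10 frizzled receptors, which bind the Wnt ligands at the cell surface, 9 were tested. Fzd3 and Fzd6 were lower in old aortae, none was higher, and 7 were not called. The 4 most abundant per kilobase, Fzd1, Fzd7, Fzd4 and Fzd2, together held 84.1% of the summed frizzled level in young and 87.1% in old aortae, and the sum itself was 2953 ± 106 and 2983 ± 185.

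Fzd3 (chr14:65192449-65262463, minus strand, GRCm38), a receptor known for axon guidance and planar polarity, measured 127, 186, 178, 165 and 202 normalized counts in young and 109.9, 86.1, 104, 119 and 105 in old aortae. Young replicate 1 came near the old values but stayed above them. From a mean of 172 ± 28.4, Fzd3 fell to 105 ± 11.9 (edgeR log2 fold change -0.70, SE 0.14, adjusted p = 0.00555). Per kilobase of its 12804 exonic bases Fzd3 was the lowest of the tested frizzleds over the 10 aortae, at 13.4 normalized counts in young and 8.18 in old ones.

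Fzd6 (chr15:39006034-39038188, plus strand, GRCm38), a receptor known for hair patterning and planar polarity, measured 855, 537, 804, 576 and 587 normalized counts in young and 467, 501, 445, 485 and 379 in old aortae. Young replicates 1 and 3 were high, and the other young aortae lay only just above the old ones. Its mean fell from 672 ± 146 to 456 ± 47.5 (edgeR log2 fold change -0.55, SE 0.14, adjusted p = 0.0205). Without old replicate 3 it was no longer called (edgeR adjusted p = 0.0520, over a range of 0.00162 to 0.0520 in the alternatives).

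Fzd1 was the most abundant frizzled per kilobase, with 25.4 ± 1.88% of the family's sum in young and 25.8 ± 1.38% in old aortae. Its normalized counts were 3296, 3112, 2715, 3144 and 3485 in the young and 3206, 2774, 3434, 3640.4 and 3122 in the old aortae, which overlapped over nearly the whole range (log2 fold change 0.05, SE 0.08, edgeR adjusted p = 0.765). Fzd7, at 2865 ± 255 and 3089 ± 255, Fzd4, at 3745 ± 386 and 3900 ± 311, and Fzd2, at 1992 ± 345 and 2070 ± 133, had log2 fold changes of 0.12, 0.07 and 0.06 and were not called. Leaving out 1 mouse moved these values to between 0.072 (without old replicate 1) and 0.16 (without young replicate 5) for Fzd7, 0.021 (without old replicate 4) and 0.11 (without young replicate 1) for Fzd4, and 0.00054 (without young replicate 4) and 0.13 (without young replicate 1) for Fzd2. Fzd4 is the receptor of norrin in retinal vessels. Fzd8 was at 1275 ± 196 and 1089 ± 248 and Fzd5 at 623 ± 65.4 and 551 ± 44.2, and neither was called. Of the exonic sequence of Fzd5, 17.8% is overlapped by Gm38058 on the opposite strand. Fzd9 was at 29.8 ± 8.17 in young and 46.2 ± 4.50 in old aortae without overlap, but was not called (log2 fold change 0.64, SE 0.21, edgeR adjusted p = 0.0695). DESeq2 alone of the alternatives called it, with an adjusted p of 0.0446 in a range of 0.0446 to 0.145.

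**Figure D4:**
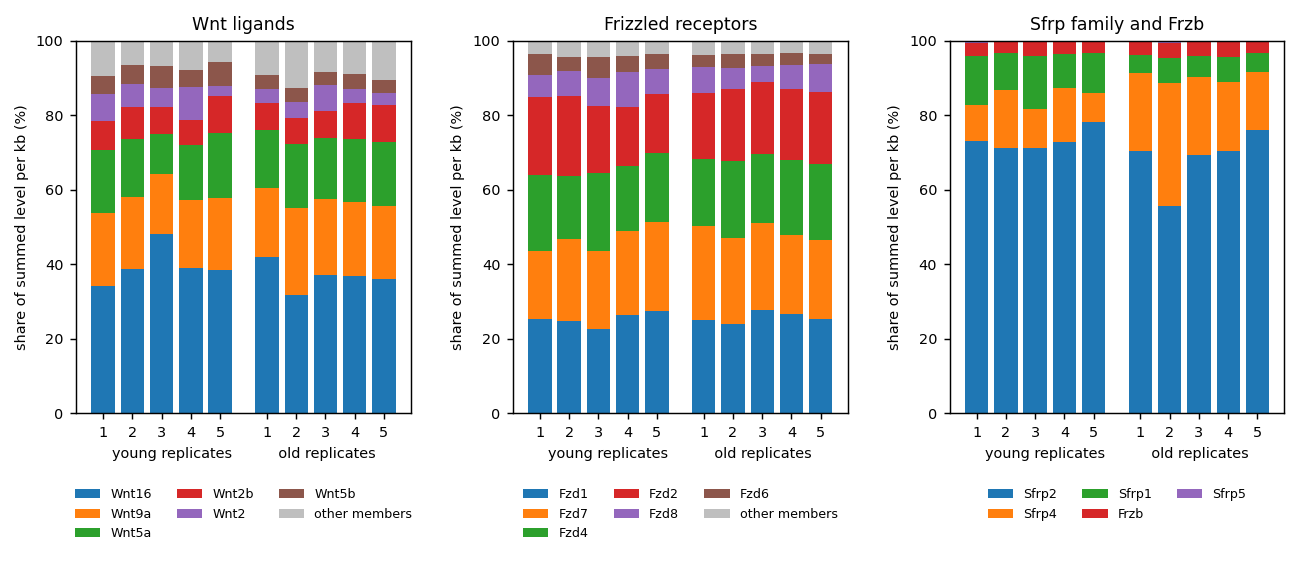
Share (%) of the summed level per kilobase of exon held by each member (y axis) in each aorta (x axis, young and old replicates 1 to 5), for the Wnt ligands, the frizzled receptors, and the Sfrp family with Frzb. Wnt16, Fzd1 and Sfrp2 held the largest share of their family in each aorta, and the Sfrp1 share was smaller in each old than in each young aorta.

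The co-receptors Lrp5 and Lrp6, which work with frizzleds in beta-catenin signalling, stood at like levels per kilobase, 341 and 325 in young and 278 and 281 in old aortae. Lrp5 (chr19:3584828-3686564, minus strand, GRCm38), known for its control of bone mass and eye vessels, measured 3653, 3219, 3171, 3322 and 3225 normalized counts in young and 2702, 2782, 2517, 3013 and 2500 in old aortae. No old aorta reached the lowest young one. From 3318 ± 195 it fell to 2703 ± 211 (edgeR log2 fold change -0.29, SE 0.065, adjusted p = 0.0125), and Lrp5 was called in 17 of 17 alternatives. Lrp6 had values of 4237, 4439, 4352, 4628 and 4592 in young and 3820.4, 3480.5, 3550.0, 4359 and 4019 in old aortae, of which old replicate 4 lay within the young range. Its log2 fold change of -0.20 (SE 0.066, edgeR adjusted p = 0.0646) passed in 3 of 17 alternatives, with DESeq2 at an adjusted p of 0.0227 (range 0.0227 to 0.149).

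LGR receptors bind R-spondins, and Lgr5 and Lgr6 are also known as stem cell markers of epithelia. In the aorta Lgr6 held 89.9 ± 0.940% of their summed level per kilobase in young and 90.6 ± 0.791% in old mice, and ranked 744 of 14516 genes. Its normalized counts were 7403, 9713, 7304, 7322 and 7792 in young and 7259, 7294, 7841, 7185 and 6327 in old aortae. Young replicate 2 stood above the others, and the remaining values overlapped (log2 fold change -0.13, SE 0.087, edgeR adjusted p = 0.374, and -0.050 without that aorta).

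Lgr4 (chr2:109917647-110014257, plus strand, GRCm38), the broadly expressed member of the LGR group, measured 685, 779, 766, 722 and 799 normalized counts in young and 630, 677, 593, 667 and 611 in old aortae. The groups did not overlap, but young replicate 1 and old replicate 2 came within a few counts of each other. Means of 750.2 ± 46.1 and 635 ± 36.0 gave an edgeR log2 fold change of -0.23 (SE 0.064, adjusted p = 0.0324). It was called in 9 of 17 alternatives, with adjusted p from 0.00943 to 0.0810, and was lost with no filter on low counts and on leaving out any of young replicates 2 to 5 or old replicates 1, 3 and 5. Lgr5 was under the filter, with 24 counts in young and 8 in old libraries.

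Sfrp proteins and Frzb are secreted copies of the frizzled ligand-binding domain that hold Wnt proteins away from their receptors. All 5 were tested, with 1 lower in old aortae and 4 not called. Sfrp1 (chr8:23411502-23449632, plus strand, GRCm38) showed the largest negative fold change of the 36 members. It measured 3224, 2549, 3396, 2024 and 2839 normalized counts in young and 906, 1074, 1563, 1445 and 1028 in old aortae. Its mean fell from 2806 ± 548 to 1203 ± 284 (edgeR log2 fold change -1.21, SE 0.18, adjusted p = 0.00193). The highest old aorta was still well under the lowest young one. Its share of the family's summed level per kilobase went from 11.5 ± 2.28% to 5.71 ± 0.834%.

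Sfrp2 was the most abundant of the family per kilobase, with 73.3 ± 2.92% of the sum in young and 68.3 ± 7.61% in old aortae. Its normalized counts were 8745, 8992, 8284, 8095 and 10151 in young and 6541, 4479.7, 9460, 7632 and 7687 in old aortae. Old replicate 2 was by far the lowest and old replicate 3 was above 4 of the 5 young aortae (log2 fold change -0.30, SE 0.16, edgeR adjusted p = 0.260). The log2 fold change was -0.17 without old replicate 2 and -0.42 without old replicate 3, and Sfrp2 was called in neither. Of its exonic sequence, 16.1% is overlapped by Gm26771 on the opposite strand.

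Sfrp4, an antagonist known from bone and phosphate balance, pointed the other way without being called. Its values were 2197, 3850.0, 2364, 3140.3 and 1958 normalized counts in young and 3808, 5208, 5475, 3916 and 3071 in old aortae. Young replicates 2 and 4 overlapped with the lower old aortae. With means of 2702 ± 779.9 and 4296 ± 1013, edgeR gave a log2 fold change of 0.68 (SE 0.21, adjusted p = 0.0698), and 4 of 17 alternatives called it, DESeq2 with an adjusted p of 0.00555 (range 0.00555 to 0.179). Its share of the family's sum was 11.6 ± 3.39% in young and 21.9 ± 6.73% in old aortae. Frzb was at 594 ± 40.7 and 582 ± 152 normalized counts, with a wider spread in old aortae, and Sfrp5 at 34.6 ± 19.1 and 33.0 ± 7.01, with 67.5 in young replicate 1.

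Of the Dickkopf proteins, Dkk3 held 99.5% of the summed level per kilobase in young and 99.7% in old aortae. Dkk3 is the divergent member of the family, for which binding to LRP co-receptors is not established. Dkk3 (chr7:112116017-112159057, minus strand, GRCm38) measured 11117, 12683, 12298, 11570 and 12417 normalized counts in young and 15891, 12020.4, 19140, 14931 and 14775 in old aortae. Old replicate 2 lay within the young range, and the other 4 old aortae lay above it. Means of 12017 ± 651 and 15351 ± 2562 gave an edgeR log2 fold change of 0.36 (SE 0.10, adjusted p = 0.0339). The call was made in 8 of 17 alternatives, with adjusted p from 0.00581 to 0.0838, and was lost on leaving out any mouse other than old replicate 2. Dkk2 was at 62.9 ± 27.5 and 46.4 ± 12.7 (edgeR adjusted p = 0.436), and Dkk1, the best known inhibitor of Lrp5 and Lrp6, had 52 counts in all 10 libraries and was not tested.

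Sost encodes sclerostin, an inhibitor of Lrp5 and Lrp6 made by osteocytes and also found in arterial smooth muscle. Sost (chr11:101962458-101967015, minus strand, GRCm38) was the most abundant of all members. Its normalized counts were 19958, 28425, 23107, 20539 and 20996 in young and 16188, 11981, 17949.5, 16724 and 13940 in old aortae. Each old aorta was under each young one. Its mean fell from 22605 ± 3464 to 15356 ± 2381 (edgeR log2 fold change -0.55, SE 0.12, adjusted p = 0.0117). Wif1, a secreted protein that binds Wnt ligands, was at 537 ± 68.9 in young and 517 ± 215 in old aortae, where it ranged from 275 in replicate 2 to 849 in replicate 3. Its log2 fold change was -0.04 (SE 0.25, edgeR adjusted p = 0.938), and it was 0.11 without old replicate 2 and -0.30 without old replicate 3.

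Axin2, a scaffold of the complex that destroys beta-catenin and the target gene most often read as a sign of beta-catenin signalling, was not called. It measured 178, 132, 102, 123 and 113 normalized counts in young and 144, 131, 117, 112 and 156 in old aortae, which overlapped fully. With means of 129 ± 29.4 and 132 ± 18.3, edgeR estimated a log2 fold change of 0.03 (SE 0.16, adjusted p = 0.919), and 0.17 without young replicate 1, its highest aorta.

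Among the members with at least 500 normalized counts, 20 in all, the coefficient of variation had a median of 11.7% in young and 11.6% in old aortae. Over all 36 tested members, Lrp6 in young (3.68%) and Lgr4 in old aortae (5.67%) varied least, and Rspo2 in young (73.4%) and Wnt9b in old aortae (103%) varied most. Of the 14 members under the filter, Wnt3a, Wnt8a and Wnt8b had no count in the 10 libraries, which allows a level of up to 0.0138 CPM over the libraries together, for counting error only. Dkk4, Rspo4, Wnt3 and Wnt7a had 1 count each, Wnt7b 3, Fzd10 6 and Wnt10a 10. The highest of the 14 were Wnt1 with 31 counts, Lgr5 with 32, Dkk1 with 52 and Wnt4 with 76.

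The rest of the pathway was followed in 5 lists of 78 genes, of which 70 were tested, 8 were higher and 7 lower in old aortae (21.4%, against 11.5% of all genes). The median log2 fold change of the 70 was -0.05. Of the 15 called genes, 8 were called in each of 17 alternatives. None of the 5 genes for ligand secretion was called. They include Wls, the carrier of Wnt proteins, at 4970 ± 436 and 5081 ± 495 normalized counts, and Porcn, the enzyme that adds their lipid, at 256 ± 22.3 and 245 ± 33.9.

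Inside the cell, 1 of 28 tested genes of the beta-catenin route was called. This was Frat1, a GSK3 inhibitor, at 13.9 ± 5.53 and 27.3 ± 6.50 normalized counts (log2 fold change 0.97, SE 0.28, edgeR adjusted p = 0.0418), which was called in 8 of 17 alternatives. Beta-catenin itself (Ctnnb1) was at 20852 ± 641 and 19406 ± 733 (edgeR adjusted p = 0.301). Of the 13 tested target genes that are not members, 3 were higher, namely Nkd2 (log2 fold change 0.74), Apcdd1 (0.56) and Ccnd1 (0.46), and 2 were lower, namely Bambi (-0.89) and Ccn5 (-0.75). Nkd2 and Apcdd1 are themselves inhibitors of the pathway, and Ccnd1 encodes cyclin D1. Ccnd1 was called in 8 and Ccn5 in 6 of 17 alternatives, whereas the other 3 were called in each. The other 8 were not called, and the list median was -0.06. Lef1, Notum, Rnf43 and Sp5, also in the list, were not tested, with 19, 12, 31 and 0 counts in all.

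At the cell surface, 15 further regulators were tested, of which Apcdd1, Lypd6 (0.93) and Ndp (0.84) were higher and Kremen1 (-0.48), Gpc4 (-0.27) and Gpc6 (-0.64) were lower in log2 fold change. Kremen1, a receptor that works with Dickkopf proteins, went from 1494 ± 45.4 to 1068 ± 85.0 normalized counts (edgeR adjusted p = 0.000357), and Gpc6, a glypican, from 2854 ± 225 to 1822 ± 166 (edgeR adjusted p = 0.000165). Ndp encodes norrin, the ligand of Fzd4. Lypd6, Ndp and Gpc4 were called in 12, 11 and 12 of 17 alternatives. Among 13 tested genes of non-canonical signalling, Prickle2 (0.50) and Daam2 (0.36) were higher and Celsr1 (-1.02) and Daam1 (-0.44) lower. Celsr1, a planar polarity cadherin, fell from 171 ± 39.1 to 84.0 ± 20.2, and Daam1, a formin that binds Dishevelled, from 1913 ± 135 to 1399 ± 84.1. Daam2 was called in 11 of 17 alternatives and the other 3 in each. Ryk, a Wnt receptor related to kinases, was at 2167 ± 128 and 1949 ± 69.1 without overlap, but was not called (edgeR adjusted p = 0.101).

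**Figure D5:**
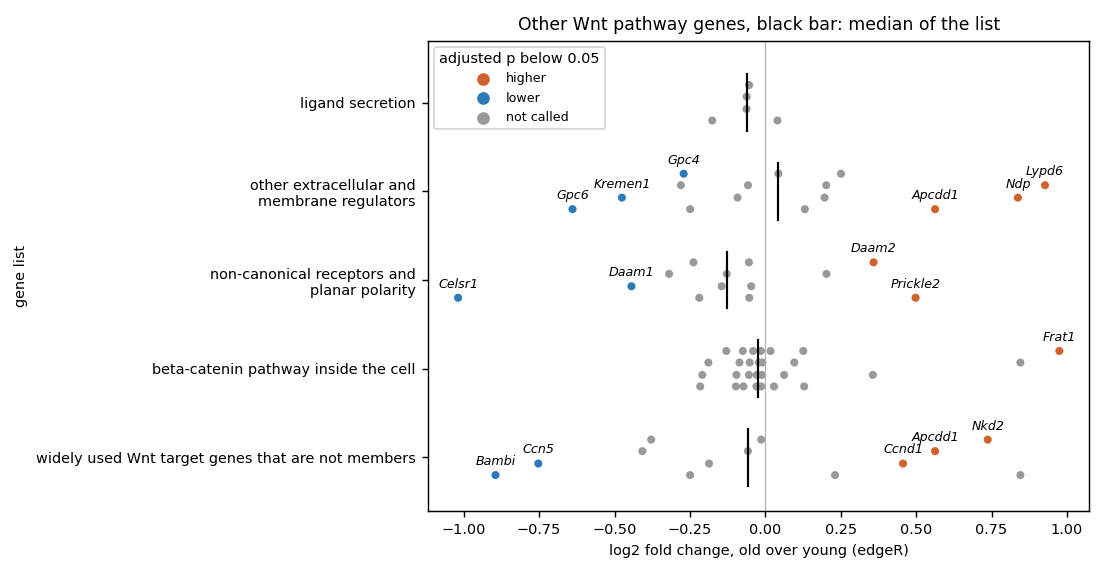
Log2 fold change of old over young aortae (x axis) for the tested genes of 5 lists of further Wnt pathway genes (y axis), with 1 point per gene and a black bar at the median of each list. Called genes are named, and 27 of the 28 genes of the beta-catenin route inside the cell are not called.

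Markers of the cell types of the aorta were measured in the same libraries. Of 8 smooth muscle markers, 1 was higher (Smtn) and none lower. The 9 endothelial markers had a median log2 fold change of -0.60, with 1 lower (Tek), and their summed level ranged from 23269 to 39168 in young and from 13276 to 27140 in old aortae. The highest endothelial sum among old aortae was that of replicate 2, which lay within the young range. Of 8 fibroblast markers, Lum was higher and Pi16 and Col1a1 were lower, with sums of 191792 to 224892 and 154463 to 205026. Of 6 macrophage markers, 3 were higher (Adgre1, Cd68 and C1qa), with sums of 4369 to 5573 and 5528 to 10477. The 5 T cell markers had sums of 7.17 to 41.9 and 34.98 to 152, and the 2 tested ones were higher. These were Cd3g (0 to 8.97 and 10.99 to 38.2) and Cd4 (5.98 to 13.3 and 14.99 to 44.7). Both passed the filter on low counts through their old values, so the 2 calls are not separate support. Of the untested ones, Cd8a (0.966 to 14.3 and 0 to 13.98) and Trac (0 to 9.20 and 0.999 to 26.1) overlapped. Cd3e did not, at 0 to 2.99 and 7.71 to 28.9. None of 3 tested B cell markers of 4 was called, with sums of 12.1 to 90.0 in young aortae, 27.0 to 73.0 in old replicates 1, 2, 4 and 5 and 321 in old replicate 3. Old replicate 3 had the highest sum of all 10 aortae for the macrophage, T cell, B cell, cartilage, striated muscle and neuronal markers. Of 6 cartilage markers, Acan and Sox9 were higher, with sums of 572 to 988 and 1112 to 1627. The other cartilage markers were not called or not tested, with Col2a1 at 9.18 ± 11.7 in young and 42.0 ± 42.3 in old aortae (log2 fold change 2.19, edgeR adjusted p = 0.108), Chad at 36.1 ± 23.3 and 8.59 ± 8.07 (-2.02, 0.0512), and Cnmd and Matn1 at 2 and 4 counts in all. Mesothelial markers were at 8.18 to 41.9 in sum in young and 10.6 to 22.4 in old aortae, and none of the 6 reached the filter. Mesothelial transcripts were thus close to absent at both ages. None of 6 adipocyte markers was called, with a median log2 fold change of -1.02 and sums of 2461 to 9378 in young and 1415 to 3555 in old aortae. The highest adipocyte sum was that of young replicate 1, and of the 6 only Plin1 did not overlap between the ages, at 599 to 2139 and 349 to 597. None of 5 Schwann cell markers (577 to 1338 and 801 to 1075) or 4 blood markers (586 to 3034 and 696 to 3931) was called. Of 6 striated muscle markers 4 were tested, and Tnnt2 was higher and Actc1 lower, with sums of 395 to 1371 and 677 to 1736. Tnnt2 averaged 241 ± 72.3 in young and 798 ± 431 in old aortae, whereas each other striated muscle marker had a lower mean in old aortae. Only 1 of 4 neuronal markers was tested, Tubb3, which was higher, at 18.8 ± 3.64 and 56.9 ± 15.6. The sums of the 4 were 15.4 to 38.8 and 50.1 to 84.8. The part of these cell types in the values of the members was not tested.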

How the data were processed

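RNA was sequenced from 10 aortae, 5 per age, with 1 stranded poly(A) library per mouse. Per the labels, the authors used fastp 0.20.0, STAR 2.7.0f and featureCounts of Subread 1.6.4 with GRCm38. The authors deposited raw counts per gene symbol, without normalization. The strand setting of the counting is not given in the sources used here, so reads of overlapping genes on opposite strands may be mixed.

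Counts were tested with edgeR 4.0.16 (quasi-likelihood, robust, TMM, filterByExpr at its defaults, R 4.3.3) over the 14614 genes that passed, with Benjamini-Hochberg adjustment and a threshold of 0.05. The authors used DESeq2, which is an alternative here (1.42.0), beside limma-voom (limma 3.58.1), other filters and scalings, a replicate block and leaving out each mouse. Levels are counts divided by DESeq2 size factors (0.918 to 1.073), and per kilobase by the union of exons in GENCODE M21. The fitting was tested on simulated data. Totals of 19640401 to 22886153 counts per library limit the precision of members with few counts.

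Members and lists were chosen with earlier results of these data known. Every member was accounted for, with values per mouse for called members and for the most abundant member of each role. Genes of the other lists were named if called, with some defining components. The labels give no batch or date by which libraries could be split. Overlap of exons and shared 50-base windows were computed for all members from GENCODE M21, and members with over 10% overlap are named in the text. The replicate numbers belong to different mice and were not taken as pairs.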

Additional observations from a re-analysis of the deposited data

Results flagged for a closer look

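In 72 groups of 5 aortae (36 tested members at 2 ages), 3 values stood apart from the other 4 of their group by Dixon's criterion at the 95% level, under which chance flags about 1 in 20 groups. Lgr6, the main LGR receptor of the aorta, was at 9713 normalized counts in young replicate 2, and the next highest young aorta was at 7792. Its log2 fold change was -0.13 with that aorta and -0.050 without it, and it was not called in either case. Wnt16, the main ligand, was at 1597 in young replicate 3, and the next highest young aorta was at 1221. Its log2 fold change was -0.26 with and -0.16 without that aorta, and it was not called in either case. Wnt2 was at 124 in old replicate 3, and the next highest old aorta was at 57.8. Its log2 fold change was -0.55 with and -0.89 without that aorta (edgeR adjusted p = 0.326 and 0.0737, over a range of 0.0737 to 0.544 in the alternatives). The 3 values came from 3 different libraries.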

How the results depend on the processing

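Rspo1, Rspo3, Wnt6, Sfrp1, Fzd3, Wnt5b, Sost and Lrp5 kept their direction and call in 17 of 17 alternatives (2 filters, 3 scalings, DESeq2, limma-voom and each mouse left out). Dkk3, Lgr4 and Fzd6 did so in 8, 9 and 16. DESeq2 called 6 members higher and 8 lower, as Fzd9, Sfrp4 and Lrp6 were added. At an adjusted p below 0.01, 3 members were higher and 3 lower. All genes were not counted at that threshold, so these numbers have no background beside them. Leaving out a mouse gave 3 to 4 members higher and 5 to 8 lower, and 474 to 1139 of all genes lower (658 to 1228 higher). DESeq2 called 2304 genes in all, against 1676. The share of higher genes among calls was 56.5%, and 62.7% by library size alone and 63.6% by upper-quartile factors, which moved the median of all genes to no more than 0.031.

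Members near 0 changed sign. Over the fits without 1 mouse the log2 fold change ranged from -0.041 to 0.17 for Axin2, -0.0020 to 0.092 for Fzd1, -0.30 to 0.11 for Wif1, -0.11 to 0.037 for Wnt9a, -0.094 to 0.096 for Wnt5a, -0.53 to 0.69 for Wnt9b, -0.17 to 0.058 for Frzb and -0.20 to 0.33 for Sfrp5. By upper-quartile factors Wnt5a was at 0.026 and Frzb at 0.0069, by library size alone at 0.022 and 0.0040. In limma-voom Wnt5a was at 0.016, Wnt9b at -0.23 and Sfrp5 at 0.048. The cause was not tested. Taken from counts not divided by exonic length, the share of Rspo1 among R-spondins was 41.2% in young and 49.4% in old aortae, that of Sfrp2 in its family 59.0% and 53.6%, and that of Fzd1 among frizzleds 21.7% and 22.2%. Low counts limit Wnt6, Wnt9b, Rspo2, Fzd9 and Sfrp5, the tested members with means under 50 normalized counts at both ages.

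With the replicate number as a block, 4 members were higher and 6 lower and 467 of all genes were lower. Dkk3 (edgeR adjusted p = 0.0702) and Lgr4 (0.0848) lost their call and Sfrp4 (0.0101) gained one, and Wnt5a was at 0.011, Wnt9b at -0.0099 and Sfrp5 at 0.033. Same-numbered aortae come from different mice, and their deviations correlated across 14614 genes at -0.30, -0.074, 0.098, -0.048 and 0.13, with the best match at the same number for replicates 3 and 5 only.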
